A study of Mus musculus with 8 samples.

Results

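Cohesin and condensin are ring-shaped protein machines built on paired SMC (structural maintenance of chromosomes) ATPases, and their transcripts were followed in mouse skin fibroblasts that received a miR-127-3p mimic. The set was chosen by gene symbol and holds 10 genes. There were 4 on the cohesin side, Smc1a, Smc3, Rad21 and Esco2, and 6 on the condensin side, Smc2, Smc4, Ncaph, Ncapg, Ncapd2 and Ncapg2. Esco2 encodes an enzyme that acetylates cohesin and is not itself a subunit of the ring. All 10 genes had a probe on the array, 1 each, and 9 of them were bright enough to be tested among 17093 features. Ncapg was too dim for the filter and is described separately.

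Dermal cells of newborn C57BL/6 mice were grown in culture and transfected with miR-127-3p mimic oligonucleotides (4 samples, arrays 2, 4, 5 and 7) or with control oligonucleotides (4 samples, arrays 1, 3, 6 and 8). The labels name no genetic change, and the transfected oligonucleotide is the only difference they give. A mimic is a synthetic double-stranded RNA made to act as the mature microRNA would, which this array does not read, so the uptake of the mimic was not measured here. RNA was labelled with the dye Cy3 and each sample was read alone on its own Agilent array of long oligonucleotide probes. Nothing in the labels says that the 4 samples of a group came from separate animals or isolations, so the p-values below measure only the spread between these samples, which may be technical.

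An array had 20756 to 23472 probes well above background, and no spot was saturated. Correlations between arrays were 0.985 to 0.994 within the mimic group, 0.984 to 0.992 within the control group and 0.960 to 0.981 between the groups. Of 8 fibroblast markers all 8 were well above background on at least 4 arrays, and their summed signal was 1394 to 1491 on mimic arrays and 1262 to 1475 on control arrays, in units of each array's 75th percentile. Of 10 macrophage and leukocyte markers 9 were well above background on at least 4 arrays, with a summed signal of 63.9 to 74.9 on mimic arrays and 36.1 to 45.4 on control arrays. Their defining marker Ptprc was below the background limit on every array. In these cultures, of the tested macrophage markers 8 of 9 were higher with the mimic, with a median log2 fold change of 1.18. Over all 17093 features 15.9% were higher and 18.3% lower at an adjusted p under 0.05 (limma). Of the tested fibroblast markers 1 of 8 was higher and 1 lower, of keratinocyte markers 1 of 3 was higher and of melanocyte and Schwann markers 1 of 5. None of 2 endothelial, 3 skeletal muscle and 4 adipocyte markers passed, and Tek, Krt1 and Ckm were not well above background on any array. The macrophage markers moved with the mimic, and their part in the results below was not tested.

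Cohesin encircles sister DNA strands from replication until anaphase and holds them together. In interphase it also extrudes the loops that fold chromosomes. Condensin uses the same architecture to compact chromosomes for mitosis. Smc2 and Smc4 are common to both of its forms, condensin I, which also contains Ncaph, Ncapg and Ncapd2, and condensin II, which contains Ncaph2, Ncapg2 and Ncapd3. In dividing cells condensin genes are among those switched on toward mitosis, whereas cohesin is needed at all stages of the cycle and in cells that no longer divide.

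The microRNA itself is shown because its seed, the stretch that pairs with target transcripts, defines the treatment. The seed, bases 2 to 8, is in capitals. The mature RNA is 22 bases long and is encoded at chr12:109592888-109592909 on the plus strand of GRCm38.p6, per RefSeq.
miR-127-3p: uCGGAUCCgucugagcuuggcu

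Promoters are shown because the condensin members moved together. RefSeq promoters of 300 bases, from 250 before to 50 after the transcription start (GRCm38.p6), matched 7 of the 10 members, and Rad21, Esco2 and Smc4 had no entry. They were searched on both strands for TTTGAA and TTTAAA (the cell cycle homology region, read by the DREAM and MuvB complexes in cell cycle genes), for CCAAT (bound by NF-Y) and for TTTCCCGC, TTTGGCGC and TTTCGCGC (E2F sites). None of these motifs overlapped another in a member. The 200 bases before the start are printed for 3 condensin members with TTTGAA and for both cohesin SMC genes, 5′ to 3′ along the gene, with matches of either strand in capitals. TTCAAA and ATTGG are TTTGAA and CCAAT on the other strand.
Smc2, chr4:52439021-52439220, plus strand: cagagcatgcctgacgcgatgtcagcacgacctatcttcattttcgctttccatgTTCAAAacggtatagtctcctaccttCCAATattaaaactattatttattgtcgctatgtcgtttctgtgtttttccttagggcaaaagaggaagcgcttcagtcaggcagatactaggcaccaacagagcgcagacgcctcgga
Ncapd2, chr6:125191587-125191786, minus strand: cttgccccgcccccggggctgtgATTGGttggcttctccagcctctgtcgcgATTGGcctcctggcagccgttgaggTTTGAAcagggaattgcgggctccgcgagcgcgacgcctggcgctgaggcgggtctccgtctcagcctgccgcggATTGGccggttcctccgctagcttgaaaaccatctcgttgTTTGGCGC
Ncapg2, chr12:116405236-116405435, plus strand: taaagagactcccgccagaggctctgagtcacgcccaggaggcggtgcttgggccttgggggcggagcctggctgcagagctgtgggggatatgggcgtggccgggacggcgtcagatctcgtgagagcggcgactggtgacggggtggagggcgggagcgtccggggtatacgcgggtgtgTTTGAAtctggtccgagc
Smc1a, chrX:152016228-152016427, plus strand: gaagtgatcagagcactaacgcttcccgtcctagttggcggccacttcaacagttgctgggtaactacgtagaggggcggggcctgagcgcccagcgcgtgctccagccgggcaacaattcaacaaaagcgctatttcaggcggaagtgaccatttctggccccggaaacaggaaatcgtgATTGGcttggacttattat
Smc3, chr19:53600196-53600395, plus strand: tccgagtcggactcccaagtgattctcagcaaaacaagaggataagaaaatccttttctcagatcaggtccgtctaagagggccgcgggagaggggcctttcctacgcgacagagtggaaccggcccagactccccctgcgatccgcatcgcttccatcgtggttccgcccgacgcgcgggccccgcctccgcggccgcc

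TTTGAA was found in 4 of 5 condensin promoters (Smc2, Ncapg, Ncapd2 and Ncapg2) and in 0 of 2 cohesin promoters, against 17.89% of 32851 promoters in the table. Relative to the transcription start, with the last base before it counted as -1, it began at -145 in Smc2, -30 in Ncapg, -123 in Ncapd2 and -18 in Ncapg2, and Smc2 carried another copy after the start. CCAAT was found in 3 of 5 condensin promoters (Smc2, Ncapg and Ncapd2) and in 1 of 2 cohesin promoters (Smc1a), against 37.41% of all promoters. Ncapd2 held 3 copies of it. At least 1 of the 3 E2F motifs was in 3 of 5 condensin promoters (Ncapg, Ncapd2 and Ncapg2) and in 1 of 2 cohesin promoters (Smc1a), against 1.84% of all promoters. Those of Smc1a and Ncapg and 1 of the 2 in Ncapg2 lay after the start. TTTAAA was in none of the 7, and 13.16% of all promoters hold it. Ncaph and Smc3 held none of the 6 motifs in this window. A match is a run of letters and was not tested for binding.

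All 9 tested members were lower with the mimic, and none was higher. Of all 17093 features, 34.2% passed the same call (limma, adjusted p under 0.05), 18.3% lower and 15.9% higher, and the median log2 fold change over all features was 0.02. A fall of at least 2-fold that passed the test occurred in 7 of the 9, against 3.88% of all features. With normexp, a background correction that draws dim signals together, it occurred in 5 of the 9, against 2.30% of all features, and Esco2 and Rad21 were the members that no longer counted. Esco2 was well above background on 4 control arrays and only 1 mimic array. Among features above background on all 8 arrays, which leave Esco2 out, 8 of 8 members were lower, against 2957 of 15001 features. In a fit of every probe that passed the filter, 18.1% were lower, and the same 9 members were. Each member has 1 probe, so that fit repeats the same fold changes and is no separate check. The groups did not overlap in 8 of the 9, with every mimic array lower, which held for 19.0% of all features, while another 15.1% were higher on every mimic array. The median over the tested members was -1.62 on the log2 scale. The array reads RNA from the whole culture, so fewer cells that express a gene and less RNA per cell cannot be told apart.

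**Figure D1:**
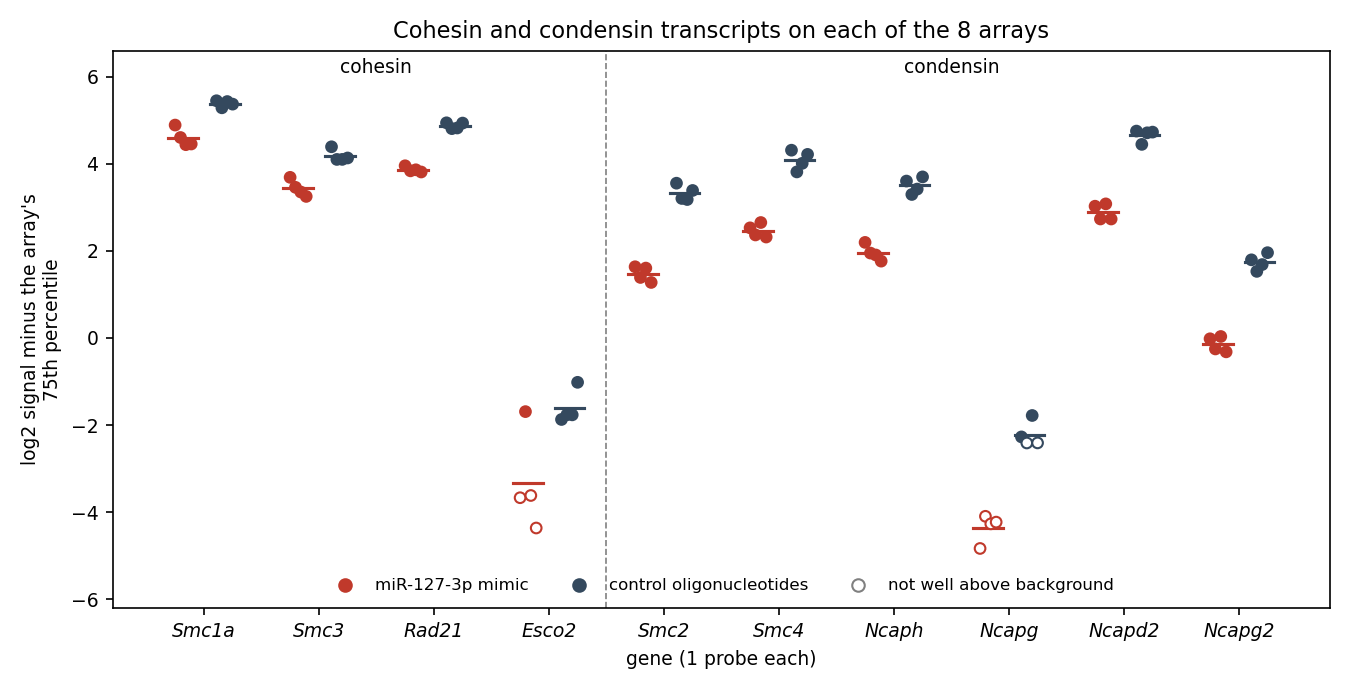
Level of each of the 10 transcripts on each array, as log2 signal minus the array's 75th percentile, with 1 point per array, mimic in red left of control in dark blue, and group means as lines. Open points were not well above background. The groups are apart in 8 of the 9 tested genes and overlap in Esco2, where mimic array 4 lies among the controls. All 4 mimic points and 2 control points of Ncapg are open.

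Levels below are log2 processed signals minus each array's 75th percentile, mimic arrays in the order 2, 4, 5, 7 and control arrays in the order 1, 3, 6, 8. A fold change is the mimic mean minus the control mean on that scale, with its standard error (SE) from limma, n = 4 in each group, and a p-value adjusted over all features.

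Among the cohesin ATPases, Smc1a, which forms one arm of the ring, stood at 4.89, 4.61, 4.44 and 4.46 with the mimic and at 5.45, 5.29, 5.43 and 5.37 in controls. The groups did not overlap, and mimic array 2 came nearest to the controls. The log2 fold change was -0.79 (SE 0.11, 95% interval -1.04 to -0.53, adjusted p = 0.00112), which leaves 58.0% of the control level. Smc3, the other arm and the one that Esco2 acetylates, stood at 3.69, 3.46, 3.35 and 3.25 with the mimic and at 4.39, 4.10, 4.10 and 4.14 in controls. Control 1 stood above the other controls, and no mimic array reached the controls. Its log2 fold change was -0.74 (SE 0.12, 95% interval -1.01 to -0.48, adjusted p = 0.00181), or 59.7% of the control level. The calls of Smc1a and Smc3 were lost within slide row 1 alone, where 2 arrays per group gave -0.62 (adjusted p = 0.0850) and -0.67 (adjusted p = 0.0797).

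Rad21, the kleisin that closes the ring and is cut by separase at anaphase, had the tightest groups of the cohesin members. It stood at 3.96, 3.84, 3.87 and 3.81 with the mimic and at 4.94, 4.81, 4.83 and 4.94 in controls. The log2 fold change was -1.01 (SE 0.07, 95% interval -1.18 to -0.84, adjusted p = 4.04e-05), a 2.01-fold lower level. The intervals of Smc1a, Smc3 and Rad21 overlapped. Relative to its control mean, Rad21 lay lowest of these 3 ring genes on each mimic array, and the differences between them were not tested.

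Esco2 makes cohesion permanent by acetylating Smc3 during replication. It stood at -3.67, -1.69, -3.62 and -4.37 with the mimic and at -1.87, -1.76, -1.77 and -1.02 in controls. Its probe was well above background on all 4 control arrays but only on mimic array 4, which lay within the range of the controls. It therefore passed the filter mostly through the group in which it is high. The log2 fold change was -1.73 (SE 0.51, 95% interval -2.90 to -0.56, adjusted p = 0.0307), with a mimic SD of 1.15 against 0.39 in controls. With normexp it was -0.34 (adjusted p = 0.211), and the call was lost in 9 of 19 other settings. For the related acetyltransferase Esco1 the log2 fold change was 0.17 (SE 0.08, adjusted p = 0.147).

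The ATPase arms of condensin had lower values than controls on every mimic array. Smc2 stood at 1.64, 1.39, 1.61 and 1.28 with the mimic and at 3.56, 3.21, 3.18 and 3.39 in controls. The log2 fold change was -1.86 (SE 0.12, 95% interval -2.13 to -1.58, adjusted p = 2.50e-05), a 3.62-fold lower level. Smc4, its partner in both condensins, stood at 2.53, 2.37, 2.65 and 2.32 with the mimic and at 4.32, 3.82, 4.01 and 4.22 in controls. The gap between the groups exceeded the whole range of either group for both genes. Smc4 had a log2 fold change of -1.62 (SE 0.13, 95% interval -1.92 to -1.33, adjusted p = 6.01e-05), or 3.08-fold lower.

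Condensin I adds a kleisin and a pair of HEAT-repeat proteins that bind DNA and regulate the ring. The kleisin Ncaph stood at 2.20, 1.95, 1.91 and 1.77 with the mimic and at 3.61, 3.30, 3.42 and 3.70 in controls, and its log2 fold change was -1.55 (SE 0.12, 95% interval -1.83 to -1.27, adjusted p = 6.01e-05). The HEAT-repeat subunit Ncapd2 stood at 3.03, 2.73, 3.08 and 2.73 with the mimic and at 4.75, 4.45, 4.71 and 4.73 in controls. Control 3 stood below the other controls, and the groups were still far apart. Its log2 fold change was -1.77 (SE 0.12, 95% interval -2.03 to -1.50, adjusted p = 2.64e-05), or 29.4% of the control level.

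Ncapg, the other HEAT-repeat subunit of condensin I, was well above background on 2 of the 8 arrays, both controls (1 and 6), and was not tested. Its measured values were -4.84, -4.10, -4.27 and -4.23 with the mimic and -2.27, -2.41, -1.78 and -2.41 in controls. The mimic values and those of controls 3 and 8 were not well above background, so these readings do not measure the level of Ncapg. A fit without the filter uses those values all the same. Its log2 fold change depended on the background correction, at -2.14, or -0.42 with normexp, so neither value measures the change of Ncapg.

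Condensin II was represented among the members by Ncapg2, its counterpart of Ncapg. It stood at -0.02, -0.25, 0.03 and -0.32 with the mimic and at 1.80, 1.53, 1.69 and 1.96 in controls. The groups were apart by more than their ranges, and the log2 fold change was -1.88 (SE 0.12, 95% interval -2.16 to -1.60, adjusted p = 2.50e-05), or 27.1% of the control level. With normexp it was -1.36 and still passed the test. In order of fitted change from the lowest of all 17093 features, Ncapg2 ranked 179, Smc2 192, Ncapd2 228, Smc4 271, Ncaph 300, Rad21 678, Smc1a 1014 and Smc3 1109. Esco2 is left out of this order because its probe was not well above background on 3 of 4 mimic arrays. The order among condensin members depends on the background correction. With normexp Ncapg2 changed least of the tested condensin members, at -1.36, and Ncapd2 most, at -1.73.

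The question of whether cohesin and condensin moved alike was put to the subunits directly. The 5 tested condensin members had log2 fold changes between -1.88 and -1.55, with a median of -1.77, and their 95% intervals all overlapped. The 4 cohesin members had a median of -0.90, or -0.79 without Esco2. The medians differed by -0.87 with Esco2 and by -0.98 without it. The interval of each tested condensin member lay below those of Smc1a, Smc3 and Rad21 and inside that of Esco2. Set against the control mean of each gene, the median over condensin members was -1.77 ± 0.18 with the mimic and -0.02 ± 0.16 in controls (SD, n = 4 arrays each). For cohesin it was -0.86 ± 0.15 with the mimic and -0.02 ± 0.07 in controls. On mimic arrays condensin medians ran from -1.93 to -1.60 and cohesin medians from -0.998 to -0.71. These medians hold for the listed members only. Esco2 lay below the condensin median on 3 of 4 mimic arrays, but its probe was not well above background on those 3. On mimic array 4, where the probe was well above background, Esco2 lay at -0.09 relative to its control mean. Among other condensin II subunits Ncapd3 had a log2 fold change of -0.996, inside the range of the 3 ring genes, and Ncaph2 one of -0.44, above it. Medians over the members that passed the filter are descriptions, with no test.

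The difference was tested in 3 pairs of members that hold the same place in their rings, by the log2 ratio of the pair within each array. Ncaph2, the kleisin of condensin II, was not paired. Its log2 fold change of -0.44 was smaller in size than the -1.01 of Rad21, so the pairs do not stand for all condensin subunits. Each ratio shows unequal change, since the levels of different probes cannot be compared. Relative to its control mean, Smc4 over Smc1a was -1.07, -0.94, -0.49 and -0.84 with the mimic and 0.16, -0.18, -0.12 and 0.14 in controls. The mean difference was -0.84 (SE 0.15), so the ratio with the mimic was 0.560 of that in controls. Mimic array 5 lay nearest to the controls and was still below all of them.

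Smc2 over Smc3 was -1.20, -1.22, -0.90 and -1.13 with the mimic and 0.01, -0.05, -0.07 and 0.10 in controls, a mean difference of -1.11 (SE 0.08) and a ratio of 0.463. Ncaph over Rad21, the kleisins, was -0.39, -0.52, -0.58 and -0.68 with the mimic and 0.03, -0.14, -0.03 and 0.14 in controls, a mean difference of -0.54 (SE 0.08) and a ratio of 0.687. In all 3 pairs each mimic array lay below each control array. The exact permutation test over the 70 assignments of 4 and 4 arrays gave p = 0.0286 for each pair, two-sided, the smallest p that the design allows, and 0.0286 after adjustment over the 3 pairs. The members were chosen with earlier results of these data known, and this p makes no allowance for that choice. Without control 1 or without control 8, Smc4 over Smc1a had an adjusted exact p of 0.0571, with differences of -0.78 and -0.79. The difference of Ncaph over Rad21 was -0.40 within slide row 1 and -0.68 within row 2.

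**Figure D2:**
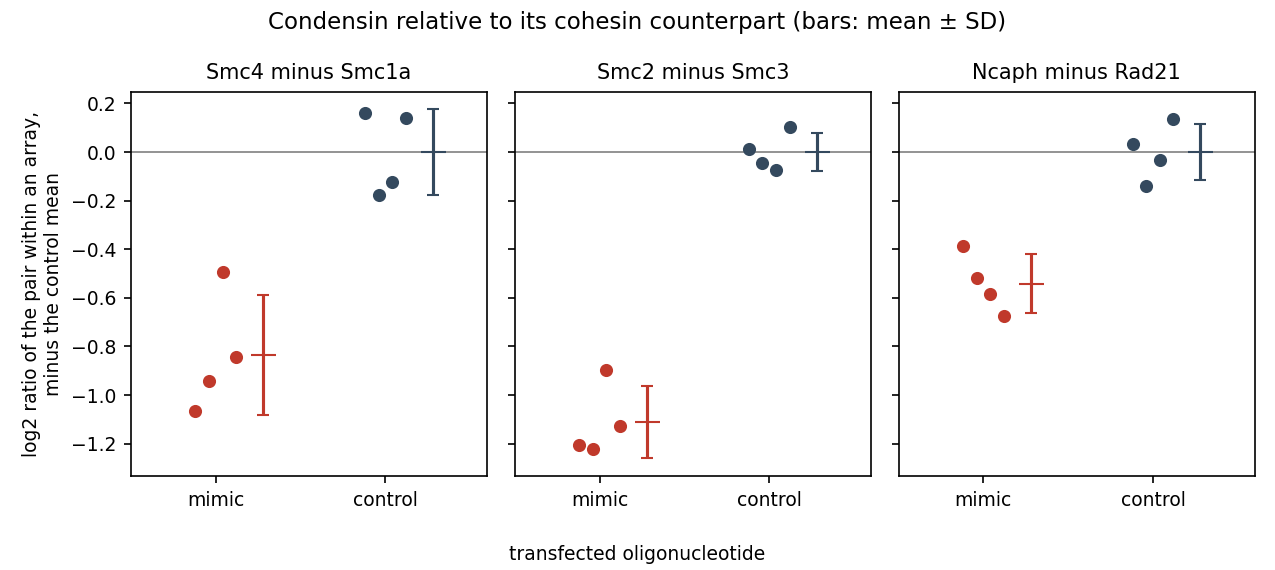
Log2 ratio of a condensin gene to its cohesin counterpart within each array, minus the mean ratio of the control arrays, for 3 pairs; points are arrays, mimic in red left of control in dark blue, and bars are mean ± SD of 4 arrays. Mimic arrays lie below 0 and below all control arrays in each pair, on average least so for Ncaph minus Rad21.

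All 8 arrays lay on 1 slide, with arrays 1 to 4 in row 1 and 5 to 8 in row 2, so each row holds 2 arrays of each group. Within row 1 condensin members had log2 fold changes of -1.87 (Smc2), -1.62 (Smc4), -1.38 (Ncaph), -1.72 (Ncapd2) and -1.80 (Ncapg2), with adjusted p between 0.0117 and 0.0207 (limma). Within row 2 they were -1.84, -1.63, -1.72, -1.81 and -1.97 in the same order, with adjusted p between 0.0175 and 0.0200. Rad21 was at -0.98 in row 1 and -1.04 in row 2 and passed in both (adjusted p = 0.0253 and 0.0227). Smc1a and Smc3 were at -0.95 and -0.82 in row 2 (adjusted p = 0.0237 and 0.0331). Esco2 differed most between the rows, at -0.86 (adjusted p = 0.432) in row 1, which holds mimic array 4, and -2.60 (adjusted p = 0.0305) in row 2. The difference between the rows was not tested. In all, 6 of the 9 tested members were lower within row 1, against 5.80% of all features, and all 9 within row 2, against 5.42%.

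Among the 8 members well above background on all 8 arrays, mimic array 7 was the lowest mimic array in 7, against 29.1% of all features, and control 3 the lowest control in 7, against 22.7% of all features. Tested genes with a symbol, other than members, were ranked by the distance of their 8-array profile from the condensin median. The distance was the root mean square on the log2 scale, after each gene was centred on its control mean. Nearest were Cdca7, a chromatin remodelling cofactor (0.0679), Prc1, which bundles spindle midzone microtubules (0.0757), Incenp, the scaffold of the chromosomal passenger complex (0.0857), Zwilch, a kinetochore checkpoint protein (0.0858), and Cdca8, another passenger complex subunit (0.0980). Their log2 fold changes were -1.78, -1.76, -1.69, -1.81 and -1.87. Values near the condensin median follow from the way these genes were picked. The condensin members, from which the profile was made, lay at 0.0512 for Ncapd2, 0.0876 for Ncapg2, 0.0940 for Smc2, 0.121 for Smc4 and 0.188 for Ncaph.

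The other genes of the SMC pathways, 44 in all, had 40 tested, of which 27 were lower, 0 higher and 13 not called, with a median log2 fold change of -0.79, against 18.3% lower, 15.9% higher and a median of 0.02 over all features. Sgo2a, Dscc1 and Ddx11 were well above background on no mimic array and passed the filter only through the controls. Without them 24 of 37 were lower, with a median of -0.66. The counts differed from one group of genes to the next.

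Among the other cohesin subunits and loaders, 1 of 4 was lower and none higher, with a median of -0.16. Stag1, which encodes a HEAT-repeat subunit that sits on Rad21, fell by 0.44 on the log2 scale (SE 0.10, adjusted p = 0.0107). Its alternative Stag2 had a log2 fold change of -0.31 (adjusted p = 0.0550). Nipbl and Mau2, which load cohesin onto DNA, had 0.09 (95% interval -0.13 to 0.32, adjusted p = 0.505) and -0.02 (95% interval -0.25 to 0.21, adjusted p = 0.920). Those intervals lay above the intervals of all 3 ring genes.

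Among genes of cohesin release and protection, 5 of 10 were lower and none higher, or 4 of 9 without Sgo2a. Espl1 encodes separase, which cuts Rad21, and changed by -2.39 on the log2 scale (SE 0.16, adjusted p = 3.04e-05). Sgo1, the shugoshin that guards centromeric cohesin, had -2.19 (SE 0.13, adjusted p = 1.84e-05), and Cdca5, or sororin, which keeps Wapl off the ring, had -1.97 (SE 0.11, adjusted p = 1.48e-05). Sgo2a, the other shugoshin, was not well above background on any mimic array. With the lowest signals well above background put in for mimic arrays, it was 3.72-fold lower (limma adjusted p = 7.79e-05). The signals put in are those of other probes, so this fold is not a strict minimum. That p rests on mimic values near background, and with normexp the log2 fold change of Sgo2a was -1.23. Pds5b, an accessory protein of the ring, had -0.89 (SE 0.09, adjusted p = 0.000205), while its paralogue Pds5a had -0.28 (adjusted p = 0.0664). The log2 fold changes of the release factor Wapl (-0.04, adjusted p = 0.765), the separase inhibitor Pttg1 (-0.20, adjusted p = 0.124) and the deacetylase Hdac8 (-0.09, adjusted p = 0.721) did not pass.

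**Figure D3:**
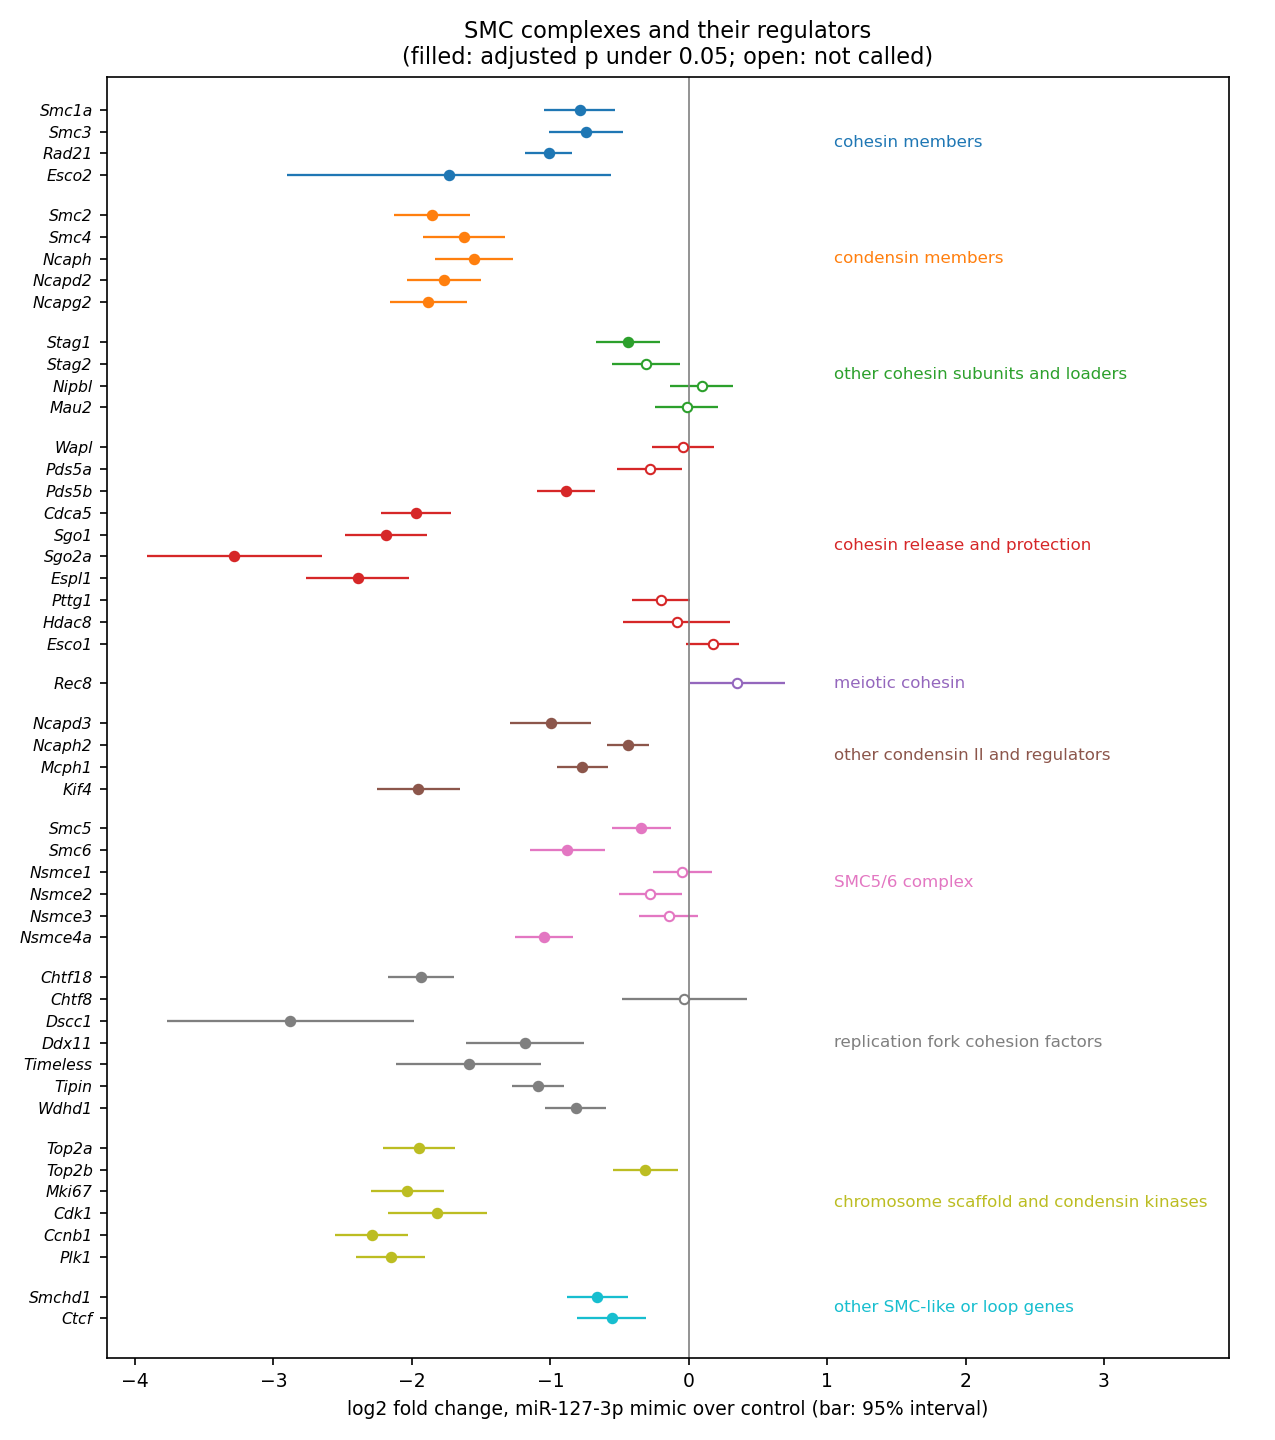
Log2 fold change, mimic over control, with its 95% interval for the 9 tested members and the 40 other tested genes of SMC pathways, grouped by role; filled points passed an adjusted p of 0.05 and open points did not. Tested condensin members lie between -1.88 and -1.55, the 3 cohesin ring genes between -1.01 and -0.74, and the cohesin loaders Nipbl and Mau2 at 0.09 and -0.02.

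Replication fork factors that help establish cohesion were lower in 6 of 7 cases, with a median of -1.18, or in 4 of 5 with a median of -1.09 without Dscc1 and Ddx11. Chtf18, which loads the sliding clamp during cohesion, had a log2 fold change of -1.94 (SE 0.11), the fork protection pair Timeless and Tipin had -1.59 (SE 0.23) and -1.09 (SE 0.08), and the fork adaptor Wdhd1 had -0.82 (SE 0.10). With signals put in as for Sgo2a, the partner of Chtf18 named Dscc1 was 3.26-fold lower and the helicase Ddx11 1.36-fold lower. These folds are not strict minimums either. With normexp the log2 fold changes of Dscc1 and Ddx11 were -1.05 and -0.25, and the call of Ddx11 was lost in 2 of 19 alternatives. The adjusted p of Chtf18, Timeless, Tipin and Wdhd1 lay between 1.29e-05 and 0.00120. Chtf8, the third member of that loader, had -0.03 (95% interval -0.48 to 0.42, adjusted p = 0.916).

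The other genes of condensin II and of condensin regulation were lower in 4 of 4 cases, with a median of -0.88. Ncapd3, its HEAT-repeat partner, averaged 0.51 ± 0.20 with the mimic and 1.51 ± 0.17 in controls (SD, n = 4 each), a log2 fold change of -0.996 (SE 0.13, 95% interval -1.29 to -0.70, adjusted p = 0.000668). Its kleisin Ncaph2 averaged 3.75 ± 0.03 with the mimic and 4.19 ± 0.04 in controls (SD, n = 4 each), a log2 fold change of -0.44 (SE 0.07, 95% interval -0.59 to -0.28, adjusted p = 0.00156). The intervals of Ncapg2, Ncapd3 and Ncaph2 did not meet one another, and the differences between these 3 subunits of 1 complex were not tested. Mcph1, which holds condensin II in check before mitosis, had -0.77 (SE 0.08, adjusted p = 0.000231). The chromokinesin Kif4, a partner of condensin I on mitotic chromosomes, had -1.95 (SE 0.13, adjusted p = 2.80e-05).

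Of 6 tested genes of the chromosome scaffold and of the kinases that act on condensin all 6 were lower, with a median of -1.99. The scaffold topoisomerase Top2a had a log2 fold change of -1.95 (SE 0.11), against -0.31 (SE 0.10, adjusted p = 0.0447) for its paralogue Top2b, which is also made outside the cycle. The call of Top2b was lost in 13 of 20 alternatives. Cdk1, whose kinase phosphorylates condensin, had -1.82 (SE 0.16), its cyclin Ccnb1 -2.29 (SE 0.12), Plk1 -2.15 (SE 0.11) and the chromosome surface protein Mki67 -2.03 (SE 0.12), all with adjusted p of at most 8.51e-05. Aurkb was not well above background on any array.

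The third SMC complex, SMC5/6, which acts in DNA repair, had 3 of 6 tested genes lower and none higher, with a median of -0.31. Smc6 changed by -0.88 on the log2 scale (SE 0.12, adjusted p = 0.000896), Smc5 -0.34 (SE 0.09, adjusted p = 0.0232) and the kleisin Nsmce4a -1.05 (SE 0.09, adjusted p = 9.45e-05). Nsmce1, Nsmce2 and Nsmce3 had values between -0.28 and -0.05 and did not pass. Smchd1, an SMC-like protein of the inactive X chromosome, and Ctcf, which halts loop-extruding cohesin, had -0.66 (SE 0.10, adjusted p = 0.00124) and -0.56 (SE 0.11, adjusted p = 0.00534). Of the meiotic cohesin genes only Rec8 was tested (0.35, SE 0.15, adjusted p = 0.106). Smc1b and Rad21l were well above background on no array and Stag3 on 2.

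**Figure D4:**
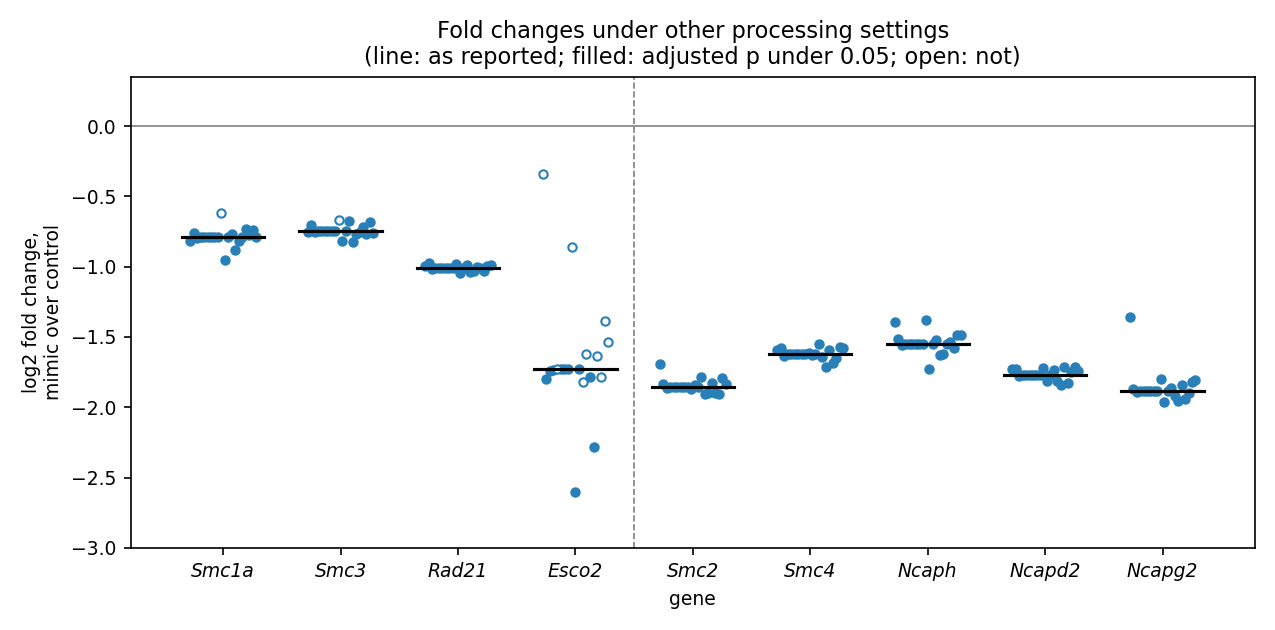
Log2 fold change of each tested member under each alternative processing or omission of an array (points) beside the reported value (line); filled points passed an adjusted p of 0.05 and open points did not. All values lie below 0. Esco2 spreads from -2.60 to -0.34, while Rad21 stays between -1.04 and -0.97.

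Across the alternatives in the plot of settings, Rad21, Smc2, Smc4, Ncaph, Ncapd2 and Ncapg2 passed the test under all 20. Their widest ranges were those of Ncapg2, from -1.97 to -1.36, and Ncaph, from -1.72 to -1.38. Other filters, the mean of a gene's probes, slide blocks and another variance model leave the fold change of a 1-probe gene fixed. Under those only the adjusted p could change, and the deposited table nearly repeats the main values.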

How the data were processed

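The intensity values of each spot were deposited as scanner tables. Per the file headers they came from Feature Extraction 11.5.1.1, which subtracted background and removed spatial trends inside each array but did not scale arrays to one another. The deposited value table holds log2 values. Each of its columns equals the log2 of the processed intensity less a single constant, with 75th percentiles near 0, medians between -3.78 and -3.60, and genes not centred. GeneSpring 14.9.1 is named in the design text of the series.

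From 62976 spots per array, 3671 controls and outlier spots were left out, spots of a probe were averaged on the log2 scale (55681 probes), and each array's 75th percentile was subtracted. Probe accessions matched 28331 probes to 21368 symbols of a RefSeq table of GRCm38.p6, used for names; the array itself is annotated on an older build. Probes well above background on at least 4 of 8 arrays were kept, the brightest per gene, which left 17093 features. The comparison used limma 3.58.1 under R 4.3.3 (eBayes, two-sided, Benjamini-Hochberg over all features, threshold 0.05). The code was tested on simulated data. All probes of each member were also fitted, which with 1 probe per member repeats the main fold changes. Pairs were compared by an exact permutation test, and sequences were searched in Python 3.11.15.

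Groups come from the sample titles; the treatment label of samples 3 and 6 names both treatments. The design called for normexp on mean spot signals, and the median spot signals of the files were used instead. The named genes are all members, all genes of the pathway lists and the 5 other genes with a symbol nearest to the condensin profile. Members and lists were chosen with earlier results of these data known. Alternatives were normexp (offset 50), quantile or median scaling, the deposited table, other filters, the mean of a gene's probes, slide row or column as a block, each row alone, another variance model and leaving out each array. The number of arrays limits the precision.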

Additional observations from a re-analysis of the deposited data

Results flagged for a closer look

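In 3 of 26 groups of 4 arrays, formed by the 10 genes and the 3 pairs in each treatment, 1 array stood apart by Dixon's test at its 95% critical value, and chance gives about 1 in 20. Smc3 was highest in control 1, at 4.39, and without it the log2 fold change was -0.67 (adjusted p = 0.00566, limma). Esco2 was highest in control 8, at -1.02, and without it the log2 fold change was -1.54 (adjusted p = 0.0786). Ncapd2 was lowest in control 3, at 4.45, and without it the log2 fold change was -1.84 (adjusted p = 6.54e-05).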

How the results depend on the processing

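The members, the medians of the complexes and the 3 pairs kept their direction under every alternative run, and so did the 27 called genes of the other pathway lists. Other filters, probe means, slide blocks and another variance model leave the fold change of a 1-probe member the same. Its direction could not differ there, and the deposited table nearly repeats the main values. Of the 13 pathway genes not called, 6 changed sign under at least 1 alternative (Nipbl, Mau2, Wapl, Hdac8, Nsmce1 and Chtf8). Calls outside the members were lost most often for Top2b (13 of 20 alternatives), Smc5 (7) and Stag1 (3). This check of the pathway lists was chosen after seeing the data. The median over all features was -0.01 within slide row 1. The groups share no replicate number, so the labels pair no samples. Each slide column holds 1 mimic and 1 control array, and with column as a block 4008 features changed and all 9 tested members were still called. With normexp the condensin median was -1.59. Within slide row 1 the cohesin median was -0.77 and Ncaph over Rad21 was -0.40, and within row 2 Ncaph over Rad21 was -0.68. Of the main 5851 changed features (3134 lower, 2717 higher), the counts were 3657, 2013 and 1644 without the filter on dim probes, which tests more features and moves the median over all features to 0.12. They were 1759, 991 and 768 within row 1 and 1611, 926 and 685 within row 2, where fewer arrays were fitted, and with slide column as a block 1780 were higher, the cause of which was not tested. Leaving out 1 array gave 4320 to 5789 changed, 2456 to 3073 lower and 1864 to 2899 higher features, 8 to 9 members called, a cohesin median of -0.96 to -0.87, a condensin median of -1.84 to -1.71 and a difference between the medians of -0.96 to -0.82. The pair differences were then -0.95 to -0.76 for Smc4 over Smc1a, -1.18 to -1.08 for Smc2 over Smc3 and -0.59 to -0.50 for Ncaph over Rad21. Leaving Esco2 out of the cohesin median was chosen after its signal was seen. The call of Esco2 was lost with normexp, without the filter (adjusted p = 0.0828), within row 1, and without control 1, 6 or 8 or mimic array 2, 5 or 7 (adjusted p between 0.0549 and 0.0786). Without mimic array 4 its log2 fold change was -2.28 (adjusted p = 0.00101). Signals near background limit what can be said of Esco2 and Ncapg.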
